A study of Homo sapiens with 6 samples.

Results

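The hypoxia-inducible factor (HIF) module examined here holds 36 genes chosen by name, namely HIF subunits, the hydroxylases and the ubiquitin ligase subunit that control them, and HIF targets outside glycolysis. Of these, 35 were matched by GENCODE symbol among 60675 genes of the count table, and INSIG2P1 had no match and was not analysed here. The samples are HEK293 cells, an established line derived from human embryonic kidney, with 3 libraries labelled MOCS2 RNAi knockdown and 3 libraries labelled control with the genotype wild type. MOCS2 encodes the subunits of molybdopterin synthase, and the study asked which transcripts differ when it is targeted. Both groups grew in high-glucose DMEM with 10% fetal bovine serum and Geneticin, and total RNA was sequenced after ribosomal RNA removal. The labels give neither the RNAi sequence nor whether the replicates were separate cultures or clones, nor the oxygen level, so the spread behind each p-value is that among these libraries and may be technical only.

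HIF is a heterodimer of an oxygen-labile alpha subunit and the constitutive beta subunit ARNT or its relative ARNT2. When oxygen is present, prolyl hydroxylases mark the alpha subunit, VHL recruits a ubiquitin ligase to it, and the protein is degraded, while an asparaginyl hydroxylase blocks its activation domain. When oxygen is short, the dimer binds a short element with the core ACGTG or GCGTG in target genes for angiogenesis, pH control, mitochondrial turnover and histone demethylation. Because this control acts largely on protein, RNA levels of the subunits do not measure HIF activity.

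MOCS2 RNA did not measure lower in the libraries labelled knockdown beyond the spread between libraries. MOCS2 stood at 69.8, 58.9 and 59.9 CPM (counts scaled to library size with TMM factors) in the libraries labelled knockdown and at 57.8, 66.6 and 65.6 CPM in controls, with a log2 fold change of -0.01 and a 95% interval of -0.33 to 0.31 (edgeR adjusted p = 0.976). Every direction below is therefore that of the libraries labelled knockdown against controls. Assigned reads numbered 17958632 to 19362299 in the libraries labelled knockdown and 19895547 to 22171106 in controls. The library labelled knockdown 2 stands apart, with 37.5% of uniquely aligned reads outside genes against 21.5% to 24.95% in the other libraries, and with 3.39% of gene reads from the mitochondrial chromosome against 1.39% to 2.32%. For the cell line's own markers, all 8 HEK293 markers were tested and summed to 2001 to 2714 CPM in the libraries labelled knockdown and 1517 to 1995 CPM in controls. VIM gave the largest part, 1017 to 1527 CPM in the libraries labelled knockdown and 677 to 922 CPM in controls. PAX2 gave the least, 0.905 to 1.49 and 1.21 to 1.62 CPM in the same order of groups. The 6 blood markers together gave 0.633 to 2.23 CPM in the libraries labelled knockdown and 0.359 to 1.51 CPM in controls, with no marker at 0 in every library. The 6 endothelial markers gave 1.64 to 3.93 CPM in the libraries labelled knockdown and 3.37 to 4.58 CPM in controls, and the 6 fibroblast markers gave 8.43 to 17.1 CPM and 8.86 to 12.6 CPM in the same order of groups.

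No member of the HIF module passed the edgeR test with all 6 libraries and the count filter. Of the 32 members with enough counts to be tested, 0 were higher and 0 lower at an edgeR adjusted p of 0.05, where the same test called 0% of all 18267 tested genes in either direction. The median log2 fold change of members was 0.04, beside 0.02 over all tested genes. At an unadjusted p under 0.05, 4 members were higher, against 9.93% of all tested genes, and 2 were lower, against 10.6%. Together these are 18.8% of the 32, against 20.5% of all tested genes. In 6 members the groups did not overlap, 3 above and 3 below the controls, which is 18.8% of members against 26.8% of all tested genes (12.5% above and 14.3% below). Both shares lie near or below the background and are not a result about the module. DESeq2 called 2 of the 32 members, BHLHE40 and ERRFI1, both higher. Of all 18267 tested genes, it called 3.08% higher, 3.26% lower and 6.33% in either direction. It gave no adjusted p to 2128 of those genes, while every tested member had one. Limma voom called 0 members (0% of all genes). With no count filter, edgeR on all 6 libraries called 4 of 35 members, all higher (BHLHE40, ERRFI1, NDRG1 and STC1), and 1574 of 43251 genes. Without the library labelled knockdown 3, edgeR called 8 of 33 tested members, 6 higher and 2 lower, and 2815 of 19062 genes. Leaving out any other library gave 0 member calls.

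**Figure D1:**
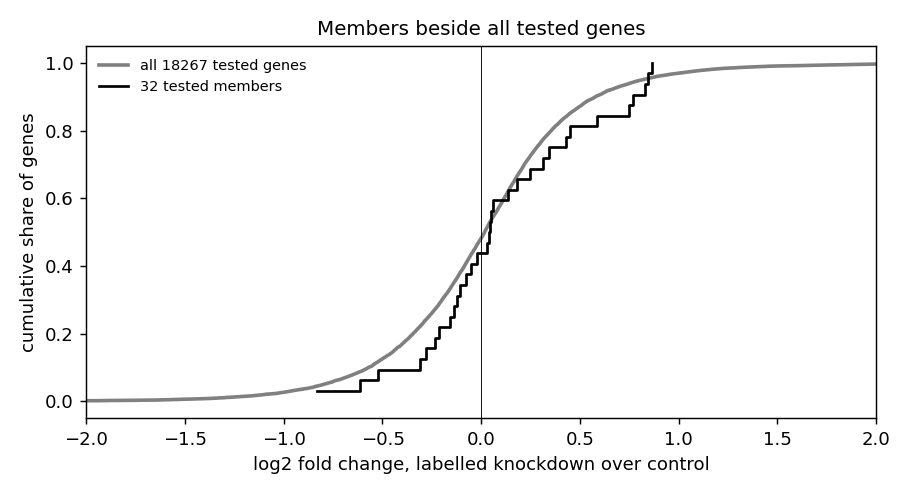
Cumulative share of genes (vertical axis) by log2 fold change of the libraries labelled knockdown over controls (horizontal axis), for the 32 tested members (black steps) and all 18267 tested genes (grey line). Both curves cross the middle close to 0, with medians of 0.04 for members and 0.02 for all genes.

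Promoter sequence shows which members carry the letters of the HIF element near their start. In RefSeq windows of 250 bases before and 50 after the gene start (GRCh38.p14), 27 of the 36 members had an entry. The core was searched as ACGTG or GCGTG on both strands, so that CACGT and CACGC also count. The palindrome CACGTG counts as 2 overlapping matches. At least 1 match was found for 21 of the 27 members. Among tested genes with a window, 19 of 24 members (79.2%) held a match, and 8132 of all 11772 did (69.1%). With ACGTG alone, 14 of the 24 tested members held a match (58.3%), against 31.6% of all tested genes with a window. A match in so short a window is a description of letters, not a bound site.

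The 250 bases before the RefSeq start of 6 members are given, 5′ to 3′ on the gene's own strand with matches in capitals. For all of these but PPFIA4, the gene start given by GENCODE lies further upstream. All bases printed for BHLHE40, and every match shown for BHLHE41 and CA9, lie past that GENCODE start. For PPFIA4, the 30 bases used to check the strand were not found in a GENCODE transcript. BHLHE40 and BHLHE41 are shown as relatives whose values lay in opposite directions. BNIP3, WSB1 and PPFIA4 are shown as members below the controls in all 3 libraries labelled knockdown, and CA9 as a classical hypoxia marker with almost no counted reads.
BHLHE40 (chr3:4979187-4979436, plus strand): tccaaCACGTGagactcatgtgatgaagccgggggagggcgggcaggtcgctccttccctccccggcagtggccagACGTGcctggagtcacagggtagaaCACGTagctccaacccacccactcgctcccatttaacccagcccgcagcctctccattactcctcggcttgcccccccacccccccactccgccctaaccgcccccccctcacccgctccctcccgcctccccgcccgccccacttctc
BHLHE41 (chr12:26125038-26125287, minus strand): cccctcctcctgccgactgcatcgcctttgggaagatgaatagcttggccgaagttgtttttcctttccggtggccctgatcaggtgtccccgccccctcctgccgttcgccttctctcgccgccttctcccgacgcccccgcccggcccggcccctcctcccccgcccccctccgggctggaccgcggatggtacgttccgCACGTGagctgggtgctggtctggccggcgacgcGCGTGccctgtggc
BNIP3 (chr10:131981924-131982173, minus strand): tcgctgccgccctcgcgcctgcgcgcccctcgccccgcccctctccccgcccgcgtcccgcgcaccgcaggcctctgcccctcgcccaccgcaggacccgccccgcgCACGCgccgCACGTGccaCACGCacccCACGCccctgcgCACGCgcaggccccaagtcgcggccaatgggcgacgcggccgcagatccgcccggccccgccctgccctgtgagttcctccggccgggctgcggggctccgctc
WSB1 (chr17:27293864-27294113, plus strand): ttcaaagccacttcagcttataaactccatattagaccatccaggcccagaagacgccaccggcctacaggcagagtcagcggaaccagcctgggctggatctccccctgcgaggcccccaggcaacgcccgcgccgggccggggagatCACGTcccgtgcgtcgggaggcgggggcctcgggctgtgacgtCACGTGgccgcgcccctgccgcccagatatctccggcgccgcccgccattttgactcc
PPFIA4 (chr1:203026241-203026490, plus strand): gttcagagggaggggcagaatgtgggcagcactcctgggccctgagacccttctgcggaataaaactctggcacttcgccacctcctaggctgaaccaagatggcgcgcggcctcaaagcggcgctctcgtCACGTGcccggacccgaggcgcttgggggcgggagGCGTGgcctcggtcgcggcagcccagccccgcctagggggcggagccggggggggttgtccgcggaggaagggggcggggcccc
CA9 (chr9:35673678-35673927, plus strand): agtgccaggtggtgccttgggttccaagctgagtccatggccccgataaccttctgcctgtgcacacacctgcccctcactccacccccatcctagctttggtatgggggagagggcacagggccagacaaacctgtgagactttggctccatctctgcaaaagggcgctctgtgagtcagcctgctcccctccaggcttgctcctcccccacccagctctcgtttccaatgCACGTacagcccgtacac
Each of these windows but that of CA9 holds the palindrome CACGTG, and the CA9 window holds a single match 18 bases before the RefSeq start. BNIP3 has the most matches of the 6, with 6 between 143 and 104 bases before its RefSeq start. The ERRFI1 window had 0 matches. Whether matches relate to differences between the groups was not tested.

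HIF1A was by far the most abundant HIF subunit RNA in both groups. HIF1A (ENSG00000100644, chromosome 14, 61695513 to 61748259, plus strand, GRCh38) encodes the oxygen-labile HIF-1 alpha subunit. Per kilobase of annotated exon it stood at 77.8 ± 10.6 CPM per kb in the libraries labelled knockdown and 65.6 ± 9.95 CPM per kb in controls (SD, n = 3 each). It ranked first of all 32 tested members in controls, and its lowest control lay above the highest control of TFRC, the next in order. ARNT had 8.55 ± 2.61 CPM per kb in the libraries labelled knockdown and 9.92 ± 0.493 in controls. EPAS1, the HIF-2 alpha subunit, had 5.50 ± 0.486 CPM per kb in the libraries labelled knockdown and 6.69 ± 1.35 in controls. ARNT2 was lowest, at 3.72 ± 0.739 CPM per kb in the libraries labelled knockdown and 2.48 ± 0.305 in controls. These 4 subunits did not overlap with each other in the 3 controls.

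Neither alpha subunit passed the test, and both had overlapping groups. HIF1A had 449.6, 342 and 411 CPM in the libraries labelled knockdown and 295, 325 and 395 CPM in controls. Its log2 fold change was 0.24 with a 95% interval of -0.14 to 0.63 (edgeR adjusted p = 0.443). EPAS1 (ENSG00000116016, chromosome 2) had 36.4, 40.6 and 43.5 CPM in the libraries labelled knockdown and 39.6, 47.8 and 59.2 CPM in controls. Control 3 was the highest library, and the log2 fold change was -0.28, interval -0.67 to 0.10 (edgeR adjusted p = 0.382). Leaving out 1 library moved it between -0.42 (without control 1) and -0.13 (without control 3), and moved HIF1A between 0.15 (without knockdown 1) and 0.36 (without control 3).

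Of the beta subunits, ARNT2 had the clearer difference. ARNT2 (ENSG00000172379, chromosome 15, 80404350 to 80597937, plus strand), best known from neural tissue, had 34.4, 29.1 and 22.95 CPM in the libraries labelled knockdown and 20.6, 20.5 and 16.5 CPM in controls. All 3 libraries labelled knockdown lay above all controls. The log2 fold change was 0.59 (SE 0.19, edgeR unadjusted p = 0.0112, adjusted p = 0.14, DESeq2 adjusted p = 0.0696), which did not pass. ARNT (ENSG00000143437, chromosome 1), the general partner of the alpha subunits, had 49.1, 43.1 and 75.1 CPM in the libraries labelled knockdown and 63.9, 68.1 and 61.8 CPM in controls. The libraries labelled knockdown 1 and 2 lay below every control and knockdown 3 above every control, so the log2 fold change of -0.21 (edgeR adjusted p = 0.577) averages unlike libraries. Without knockdown 3, ARNT was lower by edgeR (log2 fold change -0.49, adjusted p = 0.0493) and ARNT2 higher (0.72, adjusted p = 0.0212). The ARNT value was -0.06 without knockdown 2 and -0.13 without knockdown 1 (edgeR adjusted p = 0.867 and 0.818).

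**Figure D2:**
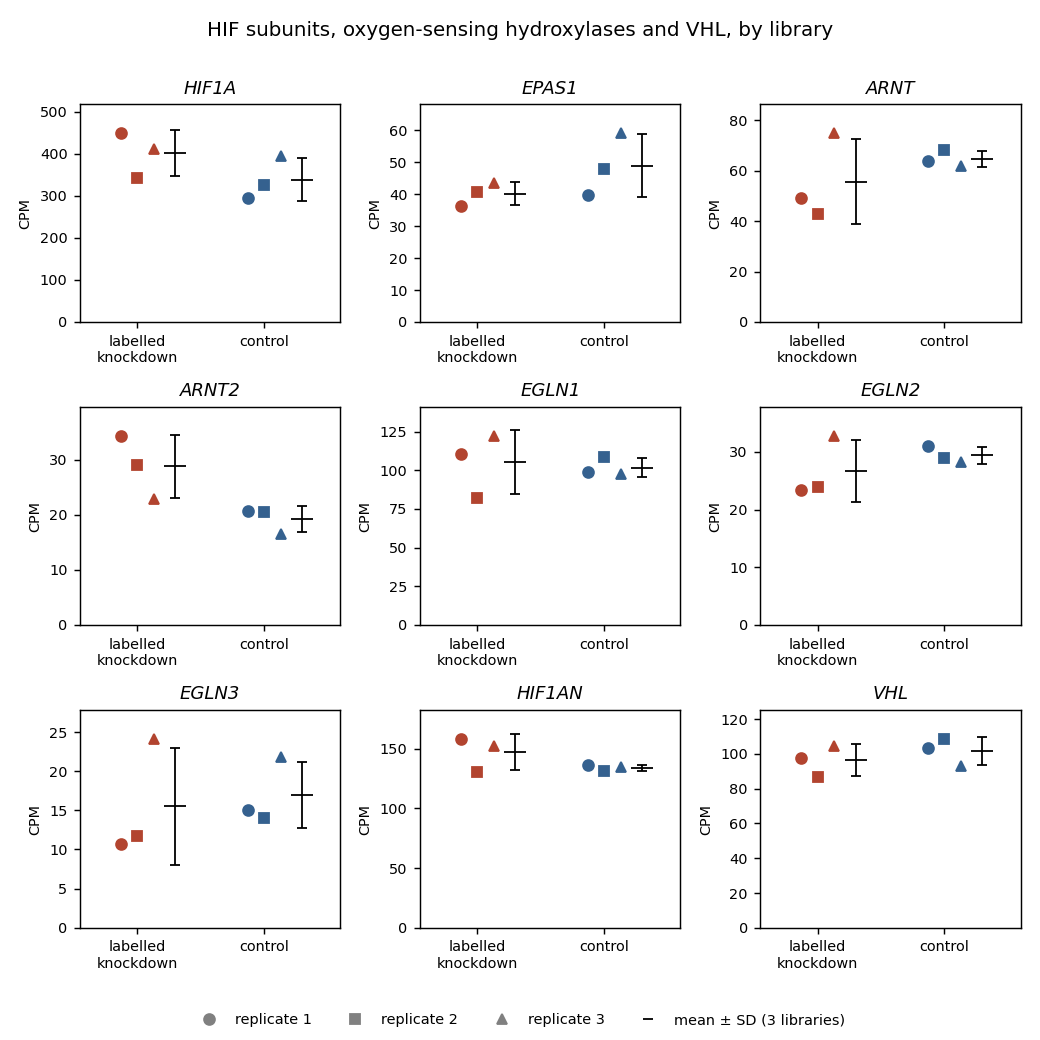
CPM (vertical axis) of the 9 HIF subunits, hydroxylases and VHL in the 3 libraries labelled knockdown (red, left) and 3 controls (blue, right); symbols give replicate numbers, and the bar is the mean with its SD. Groups are apart for ARNT2, and knockdown 3 is the highest library for ARNT, EGLN1, EGLN2 and EGLN3.

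None of the oxygen sensors passed the test, and the groups overlapped for all 5 of them. EGLN1 (PHD2), the main prolyl hydroxylase acting on HIF-1 alpha, had 110.8, 82.1 and 122 CPM in the libraries labelled knockdown and 98.9, 108 and 97.3 CPM in controls. The groups overlapped, and the log2 fold change was 0.05, interval -0.32 to 0.42 (edgeR adjusted p = 0.897). EGLN2 (PHD1) had 23.4, 23.9 and 32.8 CPM in the libraries labelled knockdown and 31.1, 28.96 and 28.2 CPM in controls, with a log2 fold change of -0.14 (edgeR adjusted p = 0.682). Its reads are uncertain, since 30.6% of its exon bases are shared with the readthrough gene RAB4B-EGLN2 on the same strand. EGLN3 (PHD3), itself a HIF target, had 10.7, 11.7 and 24.2 CPM in the libraries labelled knockdown and 15.1, 13.97 and 21.8 CPM in controls. Knockdown 3 was the highest library and the other 2 of its group the lowest, with a log2 fold change of -0.12 and a wide interval of -0.81 to 0.56 (edgeR adjusted p = 0.852).

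The asparaginyl hydroxylase and the ligase subunit had the narrowest intervals of this group. HIF1AN (FIH), which hydroxylates an asparagine of the alpha subunit, had 158, 130.5 and 153 CPM in the libraries labelled knockdown and 136, 131 and 134 CPM in controls. Its log2 fold change was 0.13, interval -0.18 to 0.45 (edgeR adjusted p = 0.62). VHL, the substrate receptor of the ligase, had 97.8, 86.8 and 105 CPM in the libraries labelled knockdown and 103.5, 109 and 92.8 CPM in controls. Its log2 fold change was -0.08, interval -0.40 to 0.24 (edgeR adjusted p = 0.797). Per kilobase VHL was the highest of the sensors, at 22.9 ± 2.16 CPM per kb in the libraries labelled knockdown and 24.1 ± 1.94 in controls, followed in controls by EGLN1 at 14.0, HIF1AN at 9.61, EGLN2 at 4.47 and EGLN3 at 2.30. The 3 controls of each of these 5 genes did not overlap with those of the next.

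Among targets that encode transcription regulators, the circadian and hypoxia repressors BHLHE40 and BHLHE41 lay in opposite directions. BHLHE40 (ENSG00000134107, chromosome 3, 4979116 to 4985323, plus strand) had 207, 127 and 129.5 CPM in the libraries labelled knockdown and 92.5, 70.5 and 91.0 CPM in controls. All 3 libraries labelled knockdown were above all controls, knockdown 1 most. The log2 fold change of 0.87 (SE 0.21) was the largest of the module and its edgeR adjusted p of 0.0979 the smallest, while DESeq2 called it at an adjusted p of 0.00701. Leaving out 1 library moved the value between 0.59 and 0.98, and edgeR called it without knockdown 3 (adjusted p = 0.014). BHLHE41 (ENSG00000123095, chromosome 12) ranged over 5.82 to 13.9 CPM in the libraries labelled knockdown and 13.5 to 14.6 CPM in controls. Knockdown 3 lay within the control range, and the log2 fold change was -0.62 (edgeR adjusted p = 0.257). Without knockdown 3 it was -1.05 (edgeR adjusted p = 0.0102), and without knockdown 1 it was -0.38 (edgeR adjusted p = 0.54).

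The other transcription regulators varied less. RORA, a nuclear receptor, ranged over 46.3 to 56.7 CPM in the libraries labelled knockdown and 37.6 to 47.3 CPM in controls, with a log2 fold change of 0.31 (edgeR adjusted p = 0.285). MXI1, a MYC antagonist, ranged over 44.96 to 54.5 CPM in the libraries labelled knockdown and 48.7 to 57.7 CPM in controls (log2 fold change -0.11). ZNF395 ranged over 17.0 to 23.3 CPM in the libraries labelled knockdown and 16.5 to 21.1 CPM in controls (-0.02), and 34.9% of its exon bases are shared with FBXO16 on the same strand. For all 3 genes the groups overlapped and no setting called them.

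Of the signalling targets, ERRFI1 had the clearest difference. ERRFI1 (ENSG00000116285, chromosome 1, 8004404 to 8026308, minus strand), a feedback inhibitor of the EGF receptor that also answers growth factors, had 107.5, 119 and 67.3 CPM in the libraries labelled knockdown and 57.4, 49.7 and 65.2 CPM in controls. The groups did not overlap, but knockdown 3 stood close to control 3. The log2 fold change was 0.77 (SE 0.21, edgeR adjusted p = 0.109), and DESeq2 called it at an adjusted p of 0.0209. Without knockdown 3 the value was 0.97 (edgeR adjusted p = 0.00393). NDRG1, a hypoxia and differentiation marker, ranged over 39.4 to 138 CPM in the libraries labelled knockdown and 33.0 to 69.7 CPM in controls. Knockdown 2 was far above the rest and the groups overlapped, with a log2 fold change of 0.75 (edgeR adjusted p = 0.301). The value was 0.22 without knockdown 2 and 1.09 without knockdown 3 (edgeR adjusted p = 0.0304). With all 6 libraries and no count filter, edgeR called NDRG1 (adjusted p = 0.0149). DDIT4 (REDD1), an inhibitor of mTORC1, ranged over 25.3 to 64.3 CPM in the libraries labelled knockdown and 34.1 to 53.0 CPM in controls. Its log2 fold change of 0.06 (edgeR adjusted p = 0.927) averages the lowest library, knockdown 1, and the highest, knockdown 3. The antisense gene DDIT4-AS1 shares 41.2% of its exon bases, and whether reads were counted by strand was not stated.

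The mitochondrial target BNIP3 was lower in all 3 libraries labelled knockdown. BNIP3 (ENSG00000176171, chromosome 10, 131966455 to 131982013, minus strand), a mitophagy receptor and a classical HIF target, had 12.9, 16.3 and 17.0 CPM in the libraries labelled knockdown and 20.9, 24.7 and 20.8 CPM in controls. The groups did not overlap. The log2 fold change was -0.52 (SE 0.18, edgeR unadjusted p = 0.0147, adjusted p = 0.151), and no setting with adjusted p-values called it. The annotation holds 39 genes named as BNIP3 pseudogenes, with which reads may be shared, so its level is uncertain. FAM162A, a mitochondrial protein of hypoxic cell death, ranged over 14.0 to 28.3 CPM in the libraries labelled knockdown and 19.7 to 22.1 CPM in controls, with a log2 fold change of 0.03 (edgeR adjusted p = 0.958). Its highest value was in knockdown 1 and its lowest in knockdown 2.

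PPFIA4 and WSB1 were lower as well. PPFIA4 (ENSG00000143847, chromosome 1, 203026498 to 203078740, plus strand), a liprin scaffold protein, had 1.07, 2.98 and 2.74 CPM in the libraries labelled knockdown and 3.73, 4.45 and 3.98 CPM in controls. All libraries labelled knockdown lay below all controls, and the log2 fold change was -0.83 (SE 0.36, edgeR unadjusted p = 0.0418, adjusted p = 0.227). Leaving out 1 library moved it between -1.08 (without knockdown 2) and -0.51 (without knockdown 1). WSB1 (ENSG00000109046, chromosome 17, 27294076 to 27315926, plus strand), a ubiquitin ligase subunit that targets VHL, had 87.3, 96.1 and 106 CPM in the libraries labelled knockdown and 117, 131 and 112 CPM in controls. These groups did not overlap either, with a log2 fold change of -0.31 (SE 0.15, edgeR adjusted p = 0.255).

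**Figure D3:**
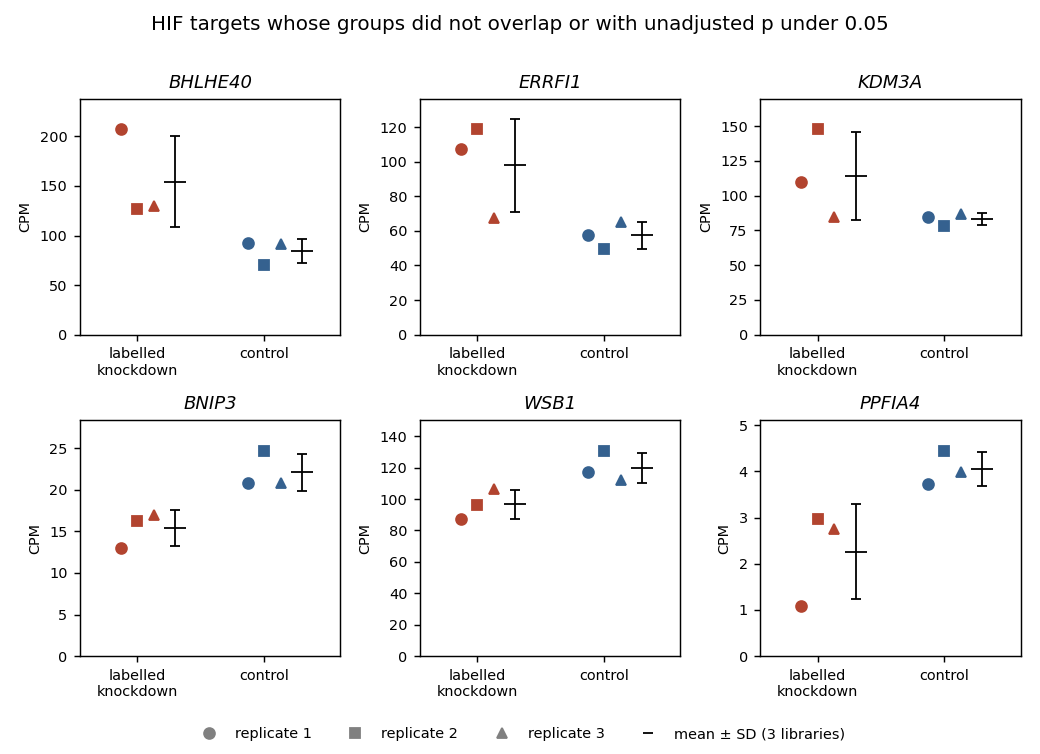
CPM (vertical axis) of 6 HIF targets in the 3 libraries labelled knockdown (red, left) and 3 controls (blue, right); symbols give replicate numbers, and the bar is the mean with its SD. BHLHE40 and ERRFI1 lie above the controls, BNIP3, WSB1 and PPFIA4 lie below them, and for KDM3A knockdown 3 lies among the controls.

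Of the oxygenases of chromatin and RNA processing, KDM3A leaned higher. KDM3A (ENSG00000115548, chromosome 2, 86440647 to 86492716, plus strand), an H3K9 demethylase induced by HIF, had 109.6, 148 and 84.7 CPM in the libraries labelled knockdown and 85.0, 78.3 and 86.6 CPM in controls. Knockdown 1 and 2 lay above every control and knockdown 3 below control 1 and 3. The log2 fold change was 0.45 (SE 0.19, edgeR unadjusted p = 0.041, adjusted p = 0.225), or 0.62 without knockdown 3 (edgeR adjusted p = 0.0285) and 0.21 without knockdown 2 (edgeR adjusted p = 0.401). KDM4B, KDM4C and JMJD6 did not pass, with log2 fold changes of 0.04, -0.16 and 0.04 and overlapping groups. KDM4B ranged over 39.8 to 54.6 CPM in the libraries labelled knockdown and 43.9 to 47.7 CPM in controls. KDM4C ranged over 9.67 to 11.2 CPM in the libraries labelled knockdown and 10.7 to 12.5 CPM in controls. JMJD6, with the narrowest interval of these genes (-0.26 to 0.34), ranged over 59.5 to 65.9 CPM in the libraries labelled knockdown and 56.1 to 62.6 CPM in controls.

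Secreted HIF targets had positive log2 fold changes but overlapping groups. VEGFA, the angiogenic growth factor most often read as a HIF target, ranged over 74.5 to 135 CPM in the libraries labelled knockdown and 72.5 to 110 CPM in controls, with a log2 fold change of 0.18, interval -0.32 to 0.69 (edgeR adjusted p = 0.686). Its sign turned without knockdown 2. ADM, the vasodilator peptide adrenomedullin, ranged over 33.3 to 53.9 CPM in the libraries labelled knockdown and 26.7 to 38.0 CPM in controls (log2 fold change 0.35, edgeR adjusted p = 0.368), and its value was 0.14 without knockdown 1 and 0.20 without control 2. STC1, the hormone stanniocalcin, ranged over 10.3 to 37.9 CPM in the libraries labelled knockdown and 9.61 to 17.7 CPM in controls. Knockdown 1 and 2 exceeded every control, knockdown 3 did not, and the log2 fold change was 0.83 (edgeR adjusted p = 0.262). It was 1.196 without knockdown 3 (edgeR adjusted p = 0.0119) and 0.39 without knockdown 1 (edgeR adjusted p = 0.68). With all 6 libraries and no count filter, edgeR called STC1 (adjusted p = 0.0136). ANGPTL4, an inhibitor of lipoprotein lipase, did not reach the count filter, with 8, 18 and 6 reads in the libraries labelled knockdown and 6, 0 and 10 reads in controls.

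Of the 2 carbonic anhydrases, CA9 had almost no counted reads, while CA12 passed the count filter. CA9 (ENSG00000107159, chromosome 9, 35673856 to 35681159, plus strand), the membrane carbonic anhydrase used to stain hypoxic tissue, had 0, 3 and 0 reads in the libraries labelled knockdown and 0, 0 and 1 read in controls. A count of 0 allows up to 0.17 CPM in knockdown 1, 0.158 CPM in knockdown 3 and 0.135 CPM in control 1 and 2, from 3 counts per library (counting error only). ARHGEF39 on the opposite strand shares 38.5% of the CA9 exon bases, so reads there may be uncounted. CA12, its relative, ranged over 5.96 to 15.2 CPM in the libraries labelled knockdown and 11.01 to 13.2 CPM in controls, with a log2 fold change of -0.23 (edgeR adjusted p = 0.688). PFKFB1, an isoform of the fructose 2,6-bisphosphate enzyme, had 1, 3 and 5 reads in the libraries labelled knockdown and 7, 9 and 5 reads in controls, too few for the test. HILPDA, a lipid droplet protein, ranged over 9.95 to 12.9 CPM in the libraries labelled knockdown and 10.6 to 12.9 CPM in controls (-0.05, edgeR adjusted p = 0.907).

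For ANKRD37 and TFRC, knockdown 1 and 2 lay above every control and knockdown 3 did not. ANKRD37, an ankyrin repeat protein often included in hypoxia signatures, had 2.04, 3.14 and 0.95 CPM in the libraries labelled knockdown and 1.66, 0.584 and 1.16 CPM in controls. Its log2 fold change of 0.84 had an interval of -0.23 to 1.92 (edgeR adjusted p = 0.349) and was 0.38 without knockdown 2 and 0.52 without control 2, and 35.2% of its exon bases are shared with UFSP2 on the opposite strand. TFRC, the transferrin receptor that takes up iron, ranged over 232 to 508 CPM in the libraries labelled knockdown and 249 to 264 CPM in controls. Knockdown 1 was the highest library and knockdown 3 the lowest, with a log2 fold change of 0.43 (edgeR adjusted p = 0.347) that came to 0.05 without knockdown 1.

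**Figure D4:**
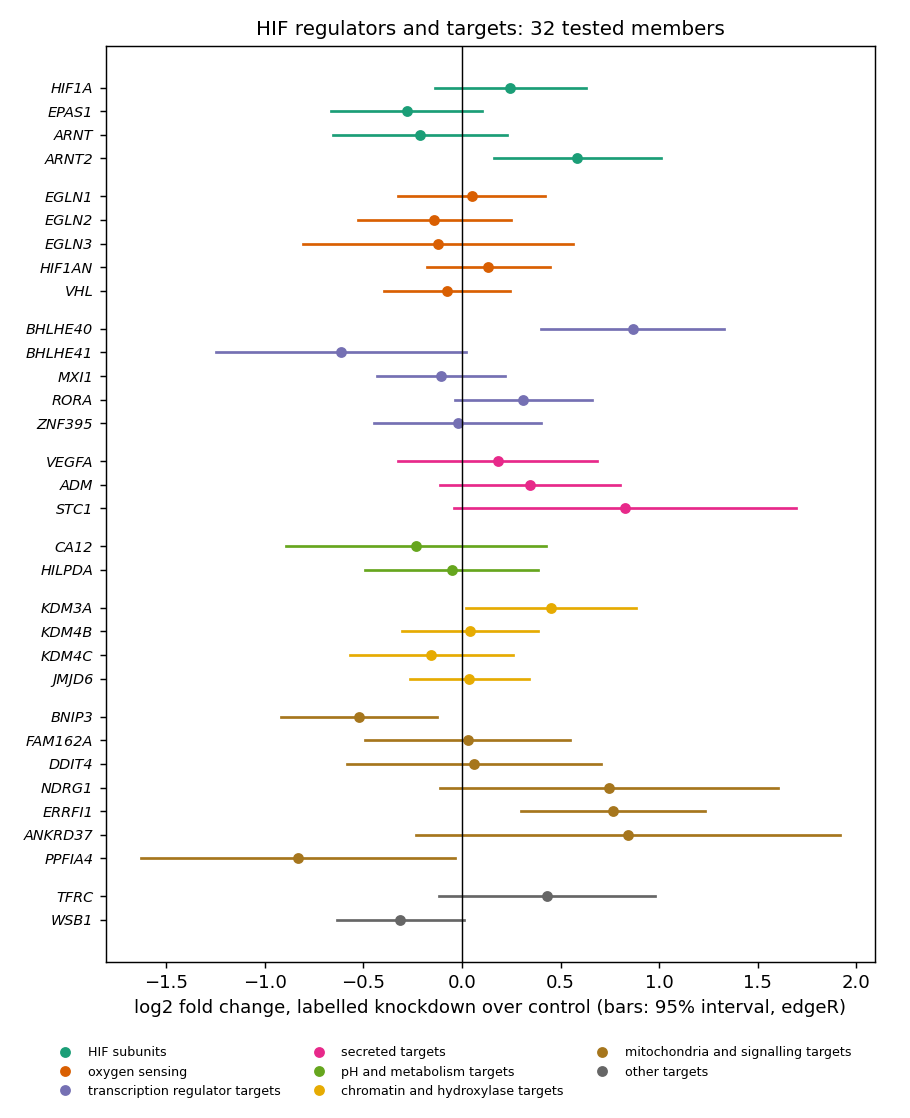
Log2 fold change of the libraries labelled knockdown over controls (horizontal axis) with its 95% interval from edgeR, for the 32 tested members (rows) coloured by role. The intervals of 26 members include 0, and those of ARNT2, BHLHE40, KDM3A and ERRFI1 lie above it and those of BNIP3 and PPFIA4 below it.

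Like most tested genes, the members varied more among the libraries labelled knockdown than among controls. The SD of CPM was larger in the libraries labelled knockdown for 26 of 32 members (81.2%), beside 75.6% of all tested genes. In knockdown 1, 15 members lay above and 12 below all 3 controls, and in knockdown 2 12 lay above and 14 below. In knockdown 3, 14 lay above, 5 below and 13 within the control range. The shares of members outside the controls were 84.4%, 81.2% and 59.4% in knockdown 1, 2 and 3, beside 76%, 77.5% and 62.3% of all tested genes. Knockdown 1 was the highest library for 10 members (31.2%, beside 23.7% of all tested genes) and the lowest for 10 (31.2%, beside 22%). Knockdown 3 was the highest for 7 (21.9%, beside 11.7%) and the lowest for 2 (6.25%, beside 12.9%). Control 2 was the highest for 7 (21.9%, beside 18.1%) and the lowest for 9 (28.1%, beside 18.3%). Knockdown 2 was the lowest for 7 (21.9%, beside 25.6%). It was the highest for 6, namely ANKRD37, CA12, ERRFI1, KDM3A, NDRG1 and VEGFA (18.8%, beside 25.1%). The part in these values of its reads outside genes and from mitochondria was not tested.

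**Figure D5:**
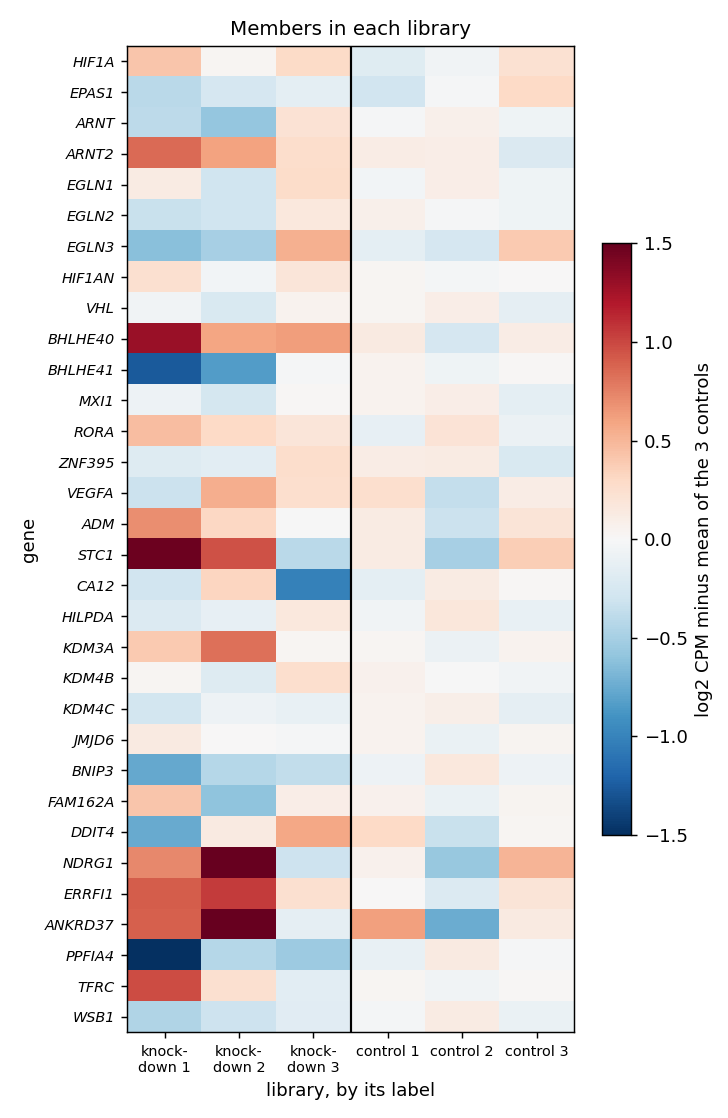
Log2 CPM of the 32 tested members (rows) minus the mean of the 3 controls, in each library (columns, the libraries labelled knockdown on the left); colours saturate at the ends of the scale. BHLHE40 and ARNT2 are red and BNIP3 and PPFIA4 blue in all 3 libraries labelled knockdown, while STC1, NDRG1, KDM3A and BHLHE41 differ from the controls mainly in knockdown 1 and 2.

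In 4 lists of other genes of HIF control and of the HIF response, edgeR with all 6 libraries and the count filter called 0 of 75 tested genes. DESeq2 called 3 of the 75, CCNG2, GYS1 and SLC40A1, all lower, beside 3.26% of all tested genes called lower. Without knockdown 3, edgeR called 15 of the 75 (5 higher and 10 lower), where the same fit called 2815 of 19062 genes (1232 higher and 1583 lower). Leaving out any other library gave 0 calls among the 75. Among 17 other HIF regulators, such as coactivators and ligase subunits, 0 passed edgeR's test over all genes, 0 were higher and 1 lower at an unadjusted edgeR p under 0.05 (5.88%, against 20.5% of all genes), and the median log2 fold change was 0.16. The lower one was ELOB, elongin B of the VHL ligase, with 92.1, 75.6 and 119.5 CPM in the libraries labelled knockdown and 139, 129 and 159 CPM in controls (log2 fold change -0.57, edgeR adjusted p = 0.137). The chaperone HSP90AA1 averaged 1764 ± 448 CPM in the libraries labelled knockdown and 1375 ± 85.9 CPM in controls, and the coactivator EP300 averaged 149.6 ± 22.1 and 124 ± 16.1 CPM in the same order (SD, n = 3 each).

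Of 21 glycolytic HIF targets, edgeR called 0, and 1 was higher and 2 lower at an unadjusted edgeR p under 0.05 (14.3%, against 20.5% of all genes). Their log2 fold changes were negative in 15 of 21, beside 8804 of all 18267 tested genes, and had a median of -0.21. PFKL, a phosphofructokinase, had 64.1, 50.01 and 108 CPM in the libraries labelled knockdown and 110.5, 125 and 113 CPM in controls (log2 fold change -0.65, edgeR adjusted p = 0.18). ALDOA, aldolase A, had 441, 288 and 627 CPM in the libraries labelled knockdown and 689, 609 and 685 CPM in controls (-0.55, edgeR adjusted p = 0.24). For both, the lowest library was knockdown 2, which had the most reads outside genes and from mitochondria, and the part of that in these values was not tested. PFKFB3, which makes the activator of phosphofructokinase, averaged 35.7 ± 10.1 CPM in the libraries labelled knockdown and 24.99 ± 2.42 CPM in controls (0.52, edgeR adjusted p = 0.214).

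Of 25 tested genes among 27 other HIF targets, 0 passed edgeR's test over all genes, 3 were higher and 5 lower at an unadjusted edgeR p under 0.05 (32%, against 20.5% of all genes), and the median log2 fold change was -0.15. EDN1, the vasoconstrictor endothelin, had 18.7, 6.64 and 0.95 CPM in the libraries labelled knockdown and 1.35, 0.988 and 1.01 CPM in controls, so that knockdown 1 and 2 lay above and knockdown 3 below every control (edgeR adjusted p = 0.105). CCNG2, a cyclin, had 11.9, 19.1 and 26.1 CPM in the libraries labelled knockdown and 32.04, 39.2 and 34.2 CPM in controls (log2 fold change -0.88, edgeR adjusted p = 0.112, DESeq2 adjusted p = 0.0213). GYS1, glycogen synthase, averaged 35.4 ± 14.9 CPM in the libraries labelled knockdown and 62.4 ± 3.02 CPM in controls (-0.82, edgeR adjusted p = 0.12, DESeq2 adjusted p = 0.0313). Both were lower in all 3 libraries labelled knockdown than in any control.

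Iron genes were read beside TFRC, and 0 of 12 passed edgeR's test over all genes, while DESeq2 called 1, SLC40A1, lower. SLC40A1, the iron exporter ferroportin, averaged 10.7 ± 0.71 CPM in the libraries labelled knockdown and 18.0 ± 4.86 CPM in controls, with no overlap (log2 fold change -0.74, edgeR adjusted p = 0.12, DESeq2 adjusted p = 0.0379). PCBP1, an iron chaperone, averaged 94.2 ± 11.3 CPM in the libraries labelled knockdown and 73.8 ± 3.21 CPM in controls (0.35, edgeR adjusted p = 0.209). TFR2, the second transferrin receptor, averaged 1.95 ± 1.1 CPM in the libraries labelled knockdown and 1.04 ± 0.152 CPM in controls (0.90, edgeR adjusted p = 0.266). The median log2 fold change of the iron list was 0.05.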

How the data were processed

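The authors deposited raw read counts per Ensembl gene, with 3 libraries per group. Per the submitters' processing notes, the tools were bcl2fastq 2.18, HTSeq and TopHat2 2.0.13, and the build was hg38. The HTSeq version, annotation and strand setting were not given in the sources used here. All 5 special HTSeq rows were left out of library sizes and tests. They include reads outside genes (21.5% to 37.5% of uniquely aligned reads) and ambiguous reads (2.87% to 3.7%). Symbols, coordinates and exon lengths came from GENCODE 29 (GRCh38) by identifier, which matched 57055 of 60675 genes.

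All genes passing filterByExpr (18267) were fitted with edgeR 4.0.16 in R 4.3.3, using TMM factors and the quasi-likelihood F test (two-sided), with Benjamini-Hochberg adjustment over all of them and a threshold of 0.05. CPM per kb divides CPM by merged exon length. The alternatives were DESeq2 1.42.0 and limma voom (limma 3.58.1), other size factors and filters, a block for the replicate number, and each library left out in turn. The fit was checked on simulated counts. No 2 replicates agreed within sampling noise (chi-square over its degrees of freedom, 10.03 to 63.7), so none was counted as a duplicate.

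Members, lists and tests were chosen with earlier results of these data known. All HIF subunits, hydroxylases and VHL are given by library, as are targets whose groups do not overlap or whose unadjusted p is under 0.05. Other members are given by range, and each further list by its 3 smallest p-values. Promoter windows came from RefSeq (GRCh38.p14). As a check of strand, 30 bases after the start were searched for in GENCODE transcripts of the gene. They were found for 28 of 33 windows, and PPFIA4 was among those where they were not.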

Additional observations from a re-analysis of the deposited data

Results flagged for a closer look

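In the library labelled knockdown 2, 37.5% of uniquely aligned reads lay outside genes, above the range of 23.6% to 24.95% in controls. These reads enter no comparison made here, and they are listed because the share exceeds that of every control.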

How the results depend on the processing

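Of 416 values for the 32 members under another setting, 378 kept both direction and side of the threshold and 24 changed sign. The other 14 passed where the edgeR fit with the count filter on all 6 libraries did not. The causes were not tested. Of 18267 genes passing the count filter, 0 were called with edgeR on all libraries, 1157 with DESeq2 (6.33%) and 19 with the replicate block. With no filter, edgeR called 1574 of 43251 genes. When 1 library was left out, the number of genes called ran from 0 to 2815, the highest without knockdown 3 (of 19062 genes). Of the 32 tested members, 2 were called with DESeq2 and 6 at an unadjusted edgeR p under 0.05, beside 6.33% and 20.5% of all tested genes. With no filter, 4 of 35 members were called (BHLHE40, ERRFI1, NDRG1 and STC1). When 1 library was left out, 0 to 8 members were called, the highest without knockdown 3 (of 33 tested). Of the 75 tested genes in the other 4 lists, 3 were called with DESeq2 and 0 to 15 when 1 library was left out. DESeq2 gave no adjusted p to 2 of the other HIF regulators and 2 of the other HIF targets. With no filter, edgeR called 8 of 77 genes of these lists.

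The samples share only replicate numbers. No label says that these numbers mark a shared batch, so the block was tried only as an alternative, and it called 0 members. Same-numbered libraries had correlations of deviations of 0.114, -0.167 and -0.125 for numbers 1, 2 and 3. Knockdown 2 with control 3 had 0.182 and knockdown 3 with control 2 had 0.189. The remaining pairs ran from -0.0769 to -0.0164. The log2 fold change of MOCS2 was 0.0095 with upper-quartile factors and -0.0941 to 0.0267 when 1 library was left out. With limma voom the sign turned for FAM162A (-0.0321) and DDIT4 (-0.0115), and with the replicate block for FAM162A (-0.0249) and DDIT4 (-0.00197).

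Leaving out 1 library turned the sign of 10 members with small values. Their log2 fold changes ran from -0.0157 to 0.0624 for JMJD6, -0.627 to 0.0387 for CA12, -0.0307 to 0.381 for VEGFA, -0.215 to 0.256 for FAM162A and -0.0832 to 0.142 for KDM4B. They ran from -0.596 to 0.0915 for EGLN3, -0.178 to 0.0312 for HILPDA, -0.0791 to 0.191 for EGLN1, -0.277 to 0.348 for DDIT4 and -0.191 to 0.0562 for ZNF395. With ACGTG alone, 16 members in place of 21 had a promoter match. Members with few reads (ANKRD37, PPFIA4, CA9, ANGPTL4, PFKFB1) are limited by depth.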
